A study of Mus musculus with 7 samples.

Results

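Pericytes and myoepithelial cells are contractile cells of the mammary gland, and here they were compared within each mouse. The cells were taken by the authors' cell type names, which gave 349 pericytes and 1670 myoepithelial cells, 2019 of 13684 cells in all. The cells came from the abdominal mammary glands of 7 virgin females of mixed strain (FVB, 129 and C57BL/6J), with lymph nodes removed and the tissue digested with enzymes. The glands of 3 young mice (Young A, B and C; 3 to 4 months) and 4 aged mice (Aged A, B, C and D; 13 to 14 months) were profiled at diestrus, with 1 droplet library of 3′ transcript ends per mouse. The mice carried no transgene or treatment that the labels give. Pericytes numbered 121, 71 and 39 in the young mice and 24, 46, 28 and 20 in the aged mice. Myoepithelial cells numbered 187, 40 and 54 in the young mice and 262, 662, 125 and 340 in the aged mice. The counts of unique molecular identifiers (UMIs) summed to 116596 to 663762 per mouse in pericytes and to 203450 to 2903207 in myoepithelial cells, and levels are given as counts scaled to a total of 1000000 per sum (CPM). Across libraries, 202 cells shared a barcode with a cell of another library, 5 pericytes and 30 myoepithelial cells among them. The cell barcodes of young and aged libraries have different formats, so an effect of age cannot be told apart from one of the processing of its libraries, whereas both cell types of a mouse share 1 library.

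Pericytes wrap capillaries from the outside, share a basement membrane with the endothelium and grade into vascular smooth muscle along the vessel. Myoepithelial cells are the basal cells of mammary ducts and alveoli, epithelial cells that contract on oxytocin and push milk toward the nipple. Both assemble a smooth muscle actomyosin apparatus, in which myosin light chain kinase (Mylk) activates myosin by phosphorylating its regulatory light chain (Myl9), while calponin, caldesmon and tropomyosin sit on the actin filament.

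The labels were first held against markers. In pericytes the summed level of 20 mural cell markers was 0.198% to 0.310% of UMIs per mouse, above 0.00420% to 0.00864% in myoepithelial cells and 0.0152% to 0.0735% in vascular endothelial cells. Myoepithelial cells held 16 basal epithelial markers at 1.55% to 2.18% of UMIs, against 0.00960% to 0.0831% in pericytes. The pericytes also held endothelial transcripts. The sum of 18 endothelial markers was 2.07% to 2.41% of UMIs in young and 0.860% to 1.49% in aged pericytes, 37.9% to 71.9% of the level in the vascular endothelial cells of the same mouse, and at most 0.0836% in myoepithelial cells. A UMI of Pecam1 or Cdh5, 2 junction genes of endothelium, was held by 279 of 349 pericytes (79.9%, 95% Wilson interval 75.4 to 83.8, 71.6% when thinned) and by 58 of 1670 myoepithelial cells (3.47%, 95% Wilson interval 2.70 to 4.46, 1.26% when thinned). Here and below, thinned shares are those with each cell drawn down to 2000 UMIs, and intervals cover counting error only. The share of pericytes with such a UMI was 91.5% to 95.9% in the young mice and 39.1% to 75.0% in the aged mice. Of the 349 pericytes, 220 held UMIs of both an endothelial and a mural gene (Rgs5, Des, Notch3 or Pdgfrb), 59 of an endothelial gene alone, 66 of a mural gene alone and 4 of neither, with median UMIs per cell of 5439.5, 4601, 4013.5 and 3711.5. The 59 cells with endothelial UMIs alone had 0.116% of their pooled UMIs in 20 contractile genes, beside a mean over mice of 0.144% in vascular endothelial cells. They were picked for holding no mural UMI, and Des is also in the contractile list, so this low share is in part set by the choice. These genes thus do not bear out the label of the 59 cells, and what the cells are was not tested. Fibroblast markers reached at most 0.0937% and 0.0961% of UMIs in pericytes and myoepithelial cells, against at least 1.92% in fibroblasts, and immune markers at most 0.144% and 0.0299%. Luminal markers, were at 0.0617% to 0.348% in pericytes and 0.356% to 0.613% in myoepithelial cells.

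**Figure D1:**
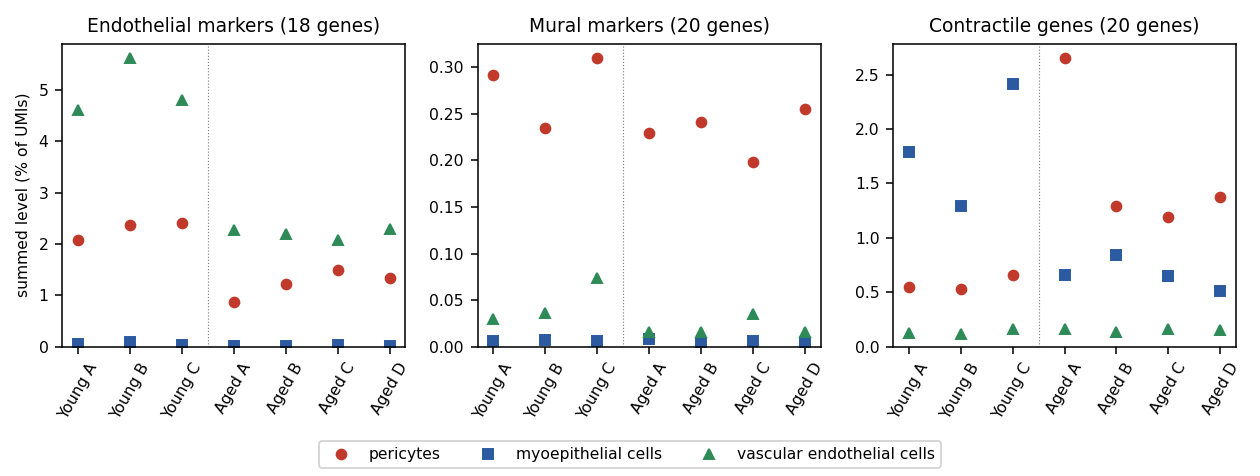
Summed level of 18 endothelial, 20 mural and 20 contractile genes (% of UMIs) in pericytes (circles), myoepithelial cells (squares) and vascular endothelial cells (triangles) of each of the 7 mice; a dotted line separates young from aged. Pericytes lie between the other types for endothelial markers, and the order of pericytes and myoepithelial cells for contractile genes is opposite in young and aged mice.

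The shared contractile program was sought against the 4 most numerous other cell types of the same mice, namely fibroblasts, vascular endothelial cells, hormone-sensing luminal cells (HS) and alveolar luminal cells (AV). A gene was called shared where the mean of both contractile types exceeded that of the 4 others at least 2-fold (adjusted p under 0.05) and the lower contractile type exceeded the highest of the others 2-fold. Of 9287 genes tested, 37 were called (0.398%). Of the 20 genes in a list of smooth muscle contractile genes, all 20 were tested and 12 were called, with a list median of 3.85 on the log2 scale beside −0.01 over all genes tested. Smooth muscle actin Acta2 led the genes, 7.44 ± 0.33 (SE) on the log2 scale (adjusted p = 9.45e-21), with 2872 CPM in pericytes and 3827 in myoepithelial cells beside 9.22 to 34.7 CPM in the 4 others. Smooth muscle myosin heavy chain Myh11 was higher by 6.91 ± 0.28 (SE), calponin Cnn1 by 6.48 ± 0.36 (SE), Myl9 by 6.27 ± 0.26 (SE) and beta-tropomyosin Tpm2 by 6.05 ± 0.36 (SE). Mylk, by 5.46 ± 0.24 (SE), stood at 74.1 CPM in vascular endothelial cells, and transgelin (Tagln), by 5.62 ± 0.31 (SE), at 291. Leiomodin 1 (Lmod1), which nucleates actin filaments, was higher by 5.81 ± 0.28 (SE) and nexilin (Nexn), an actin-binding protein, by 5.41 ± 0.33 (SE).

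Outside the actomyosin list, the shared genes included Jph2, 5.05 ± 0.41 (SE), whose product junctophilin ties the plasma membrane to the sarcoplasmic reticulum, and Slc2a4, 5.13 ± 0.34 (SE), the insulin-regulated glucose transporter. Fmod, 5.43 ± 0.52 (SE), encodes the collagen-binding proteoglycan fibromodulin, and Scube3, 4.96 ± 0.48 (SE), a secreted glycoprotein. Between the 2 types, Fmod was called lower in pericytes in young mice alone, at −4.40 on the log2 scale. In aged mice alone Fmod was not called, at 0.40. Dlk1, 6.02 ± 0.40 (SE), a membrane protein of the Notch ligand family, was lopsided: its pericyte levels were 116, 53.8 and 160.1 CPM in young and 0, 26.5, 5.65 and 8.58 CPM in aged mice, and its myoepithelial levels 0 to 23.1 CPM. The transcription factor inhibitor Id4 was shared at 55.7 ± 26.8 and 109 ± 13.7 CPM (SD, n = 7) in pericytes and myoepithelial cells. The kinase gene Prkg1, which mediates relaxation by nitric oxide, was shared at 10.6 ± 7.85 and 11.1 ± 4.82 CPM. In contrast, 0 of 17 nonmuscle cytoskeletal genes were called shared, with a list median of 0.39. Beta-actin Actb, as an example, averaged 4595 and 2006 CPM in pericytes and myoepithelial cells and 1638 to 2908 CPM in the 4 others. Without the pericytes that held Pecam1 or Cdh5, 39 genes were called, 25 of them among these 37. With only the pericytes that held a mural UMI, 43 were called, 35 of them among the 37.

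**Figure D2:**
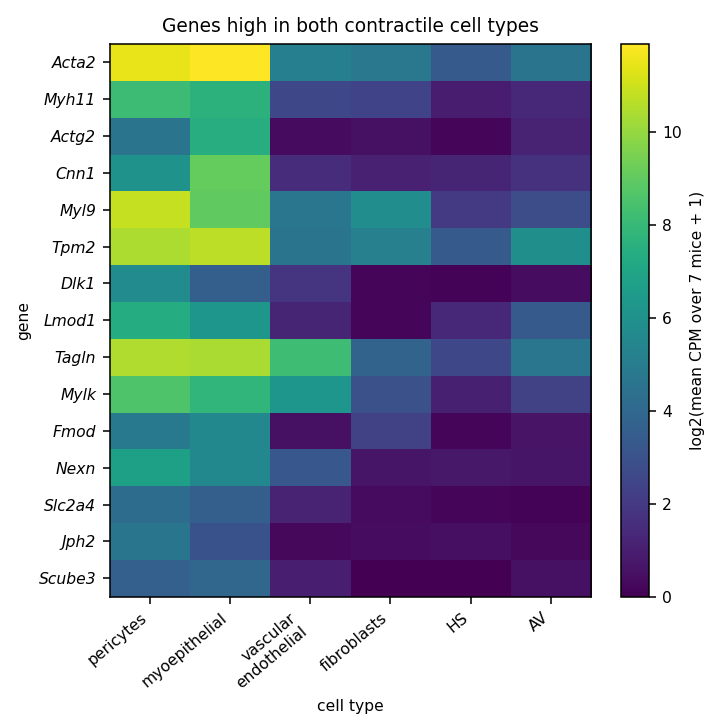
Mean level over 7 mice, log2(CPM + 1), of the 15 genes with the largest difference between both contractile cell types and the 4 other types, in 6 cell types. Both contractile columns are bright for Acta2, Tpm2, Tagln and Myl9, and Tagln and Mylk are also seen in vascular endothelial cells at 291 and 74.1 CPM.

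Because contractile genes are known to be controlled by serum response factor through CArG boxes, the 250 bases upstream of RefSeq starts (GRCm38.p6) were searched on both strands for this 10-base motif. An exact match lay in 1.47% of 32851 such windows and a match with at most 1 mismatch in 18.6%. A window was listed for 17 of the 20 contractile genes. Myl9 and Vcl held an exact match, and 8 genes held one with at most 1 mismatch, namely Acta2, Cald1, Flna, Lmod1, Myl9, Pdlim3, Tpm1 and Vcl. The share of all windows with 2 matches was not counted, and Cald1 and Csrp1 had more than 1 window, so no link to the shared genes is drawn. Of the 20 listed genes 12 were called shared, among them all 4 genes with 2 matches each (Acta2, Lmod1, Myl9 and Tpm1). Their matches are shown in capitals with 10 bases on either side, 5′ to 3′, after the position of the first base of the box counted from the RefSeq start; a match describes the letters and does not show binding.
Acta2 −84, chr19:34255438-34255467, minus strand: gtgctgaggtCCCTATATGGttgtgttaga
Acta2 −34, chr19:34255388-34255417, minus strand: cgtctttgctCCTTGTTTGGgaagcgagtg
Lmod1 −189, chr1:135324614-135324643, plus strand: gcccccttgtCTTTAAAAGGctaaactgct
Lmod1 −164, chr1:135324639-135324668, plus strand: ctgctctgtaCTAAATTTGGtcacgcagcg
Myl9 −161, chr2:156775293-156775322, plus strand: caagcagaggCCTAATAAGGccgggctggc
Myl9 −99, chr2:156775355-156775384, plus strand: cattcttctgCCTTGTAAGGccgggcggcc
Tpm1 −221, chr9:67049415-67049444, minus strand: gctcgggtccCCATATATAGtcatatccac
Tpm1 −80, chr9:67049274-67049303, minus strand: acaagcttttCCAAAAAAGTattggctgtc
The upstream Myl9 match is exact and the others each have 1 mismatch. In the GENCODE vM21 annotation on GRCm38, the genes lie as follows: Acta2 (ENSMUSG00000035783.9) at chr19:34241090-34255590 on the minus strand, Lmod1 (ENSMUSG00000048096.7) at chr1:135324807-135368065 on the plus strand, Myl9 (ENSMUSG00000067818.6) at chr2:156775420-156781658 on the plus strand and Tpm1 (ENSMUSG00000032366.15) at chr9:67022590-67049406 on the minus strand.

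Between both contractile types, 3376 genes were tested with the mouse as a block, and 921 differed (27.3%) at an adjusted p under 0.05 and at least 2-fold, 530 higher in pericytes (15.7%) and 391 in myoepithelial cells (11.6%). Of these, 493 and 319 differed the same way in all 7 mice. Both types were named from clusters of the same counts, so such differences describe the named clusters. A gene near 0 in 1 type passed the filter only through its level in the other. The counts below for lists of marker, identity or lineage genes were thus largely set beforehand and are no test of these lists. The calls in the contractile gene list depended on which pericytes and mice entered. Of its 20 genes 18 were tested, 2 were higher in pericytes (Myl9 and Des), 2 in myoepithelial cells (Cnn1 and Smtn) and 14 were not called, with a median log2 difference (pericytes minus myoepithelial cells) of −0.14 beside −0.03 over all genes tested. Without the pericytes that held Pecam1 or Cdh5 (6 mice), 20 genes were tested, 13 were higher in pericytes, 0 in myoepithelial cells, and the median was 1.38. The 13 were Acta2, Cald1, Csrp1, Des, Flna, Lmod1, Myh11, Myl9, Mylk, Synpo2, Tagln, Tpm1 and Tpm2. The mouse left out was Young C, which had 2 such pericytes, and Young A and B entered with 5 and 6. With all pericytes but without Young C the median was 0.26, and the part of the lost young mouse in these calls was not tested. Young mice alone gave 1 gene higher in pericytes and 11 in myoepithelial cells of 19 tested, and aged mice alone 9 and 2 of 20. With all pericytes the median was −0.56 to 0.30 with 1 mouse left out. Actn1 and Pdlim7, both actin crosslinking or Z-disc genes, were higher in myoepithelial cells by less than 2-fold, at −0.85 ± 0.16 (SE, adjusted p = 8.26e-04) and −0.80 ± 0.19 (SE, adjusted p = 0.00329). Without the pericytes that held Pecam1 or Cdh5 they were at −0.26 (adjusted p = 0.368) and −0.38 (adjusted p = 0.292) in the same test. For Acta2 and several others the order of the types turned with age.

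In young mice, Acta2 stood at 1050.1, 1099 and 1179.8 CPM in pericytes and 8083, 4345 and 9245 CPM in myoepithelial cells. In aged mice it stood at 6806, 3057, 2838 and 4074 CPM in pericytes and 1331, 1816, 1214 and 754 CPM in myoepithelial cells. Myoepithelial cells were higher in all 3 young mice and pericytes in all 4 aged mice, with no overlap within an age group. The log2 difference over all mice was −0.26 ± 0.78 (SE; adjusted p = 0.813), and its change from young to aged mice 4.36 ± 0.37 (SE; adjusted p = 3.91e-06). Myl9, the regulatory light chain, was at 783, 634 and 937 CPM in pericytes and 949.9, 551 and 1075 CPM in myoepithelial cells of young mice, and the ranges overlapped. In aged mice Myl9 was at 4422, 1965, 1877 and 2161 CPM in pericytes against 260.0, 323, 226 and 176 CPM, and the types did not overlap. Myl9 was higher in pericytes over all mice, 1.72 ± 0.60 (SE; adjusted p = 0.0302), a call that was lost with any 1 aged mouse left out (1.28 to 1.53, adjusted p = 0.0814 to 0.106), and the difference changed with age by 3.47 ± 0.31 (SE; adjusted p = 5.41e-06). Cnn1, the calponin of smooth muscle, was at 22.6, 2.83 and 9.15 CPM in young and 152, 106, 102 and 77.2 CPM in aged pericytes. In myoepithelial cells Cnn1 was at 689, 560.3 and 1419 CPM in young and 248, 424, 329 and 159.7 CPM in aged mice. Cnn1 was thus higher in myoepithelial cells in 7 of 7 mice, −3.30 ± 0.73 (SE; adjusted p = 0.00237), by a margin that narrowed with age. Without the pericytes that held Pecam1 or Cdh5, Cnn1 was no longer called, at −0.71 (adjusted p = 0.116).

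Myh11 ranged over 119 to 192 CPM in young pericytes and 250.2 to 441 CPM in young myoepithelial cells, and over 223 to 716 and 47.9 to 146 CPM in aged ones, so the types swapped order without overlap. Mylk ranged over 204 to 357 and 337 to 451 CPM in young and 309 to 691 and 58.2 to 160.0 CPM in aged pericytes and myoepithelial cells, overlapping in young mice alone. Tagln and Tpm2 followed the order of Acta2 in each mouse. In all, 13 of the 18 contractile genes tested shifted toward pericytes in aged mice (7.08% of all genes tested did) and 0 toward myoepithelial cells (5.75%), with a median change of 2.12 on the log2 scale beside 0.02 over all genes. These 13 were Acta2, Cald1, Cnn1, Csrp1, Flna, Lmod1, Myh11, Myl9, Mylk, Pdlim3, Tagln, Tpm1 and Tpm2. The list took 0.525% to 0.662% of UMIs in young and 1.19% to 2.66% in aged pericytes. In myoepithelial cells it took 1.29% to 2.42% in young and 0.507% to 0.839% in aged mice. In these sums the list was thus higher in aged pericytes and lower in aged myoepithelial cells, without overlap. Single cells differed less: the median cell of Aged A to D held 3.02%, 0.736%, 0.419% and 0.456% in pericytes against 0.503%, 0.573%, 0.548% and 0.421%. An Acta2 UMI was held by 68.0% of young and 66.9% of aged pericytes. For Tpm2 the share in aged mice was 68.6% of pericytes and 94.3% of myoepithelial cells. For each mouse, the number of the 18 genes that were higher in pericytes was 2, 3 and 2 in young mice and 14, 14, 14 and 12 in aged mice.

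The endothelial RNA in the pericytes moved with this result. Pericytes that held Pecam1 or Cdh5 had 0.476% of UMIs in contractile genes in young and 0.440% in aged mice, and pericytes that held neither had 2.26% and 3.11%. In single young mice the last share was 3.61%, 1.43% and 1.75%, from 5, 6 and 2 cells, and in single aged mice 4.47%, 2.15%, 3.91% and 3.00%. The cells that held neither were 13 of 231 pericytes in young mice and 57 of 118 in aged mice. With these cells alone and the 6 mice that had at least 3 of them, 20 of 20 contractile genes still had a change above 0 (median 1.35), but 2 were called, Acta2 with 2.93 (adjusted p = 0.0131) and Myl9 with 2.38 (adjusted p = 0.0279). The median change was 2.33, with 13 of 19 genes called, among pericytes that held a mural UMI, a subset chosen after seeing the data. The mural list took 0.235% to 0.310% of UMIs in young and 0.198% to 0.256% in aged pericytes, and 0 of its 10 tested genes had a called change, with a median of −0.59. The part of vascular smooth muscle among the cells named pericytes was not tested; Pln, a calcium pump inhibitor of muscle, was at 6.03, 8.50 and 18.3 CPM in young and 244, 37.1, 56.5 and 42.9 CPM in aged pericytes. It had 0 counts in myoepithelial cells, which over the 7 mice made it at least 89.6-fold higher in pericytes (against 3 counts over the group).

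**Figure D3:**
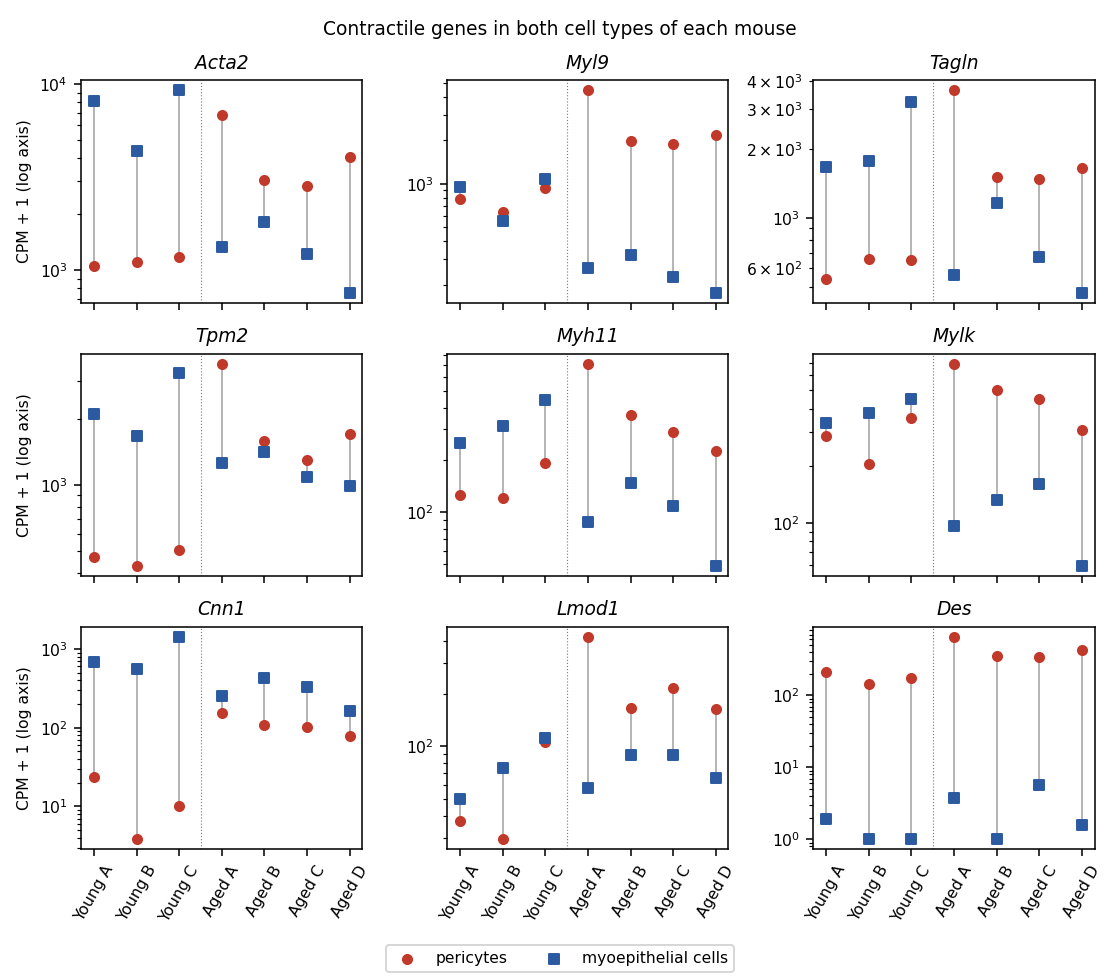
Levels of 9 contractile genes (CPM + 1, log axis) in pericytes (circles) and myoepithelial cells (squares) of each mouse, joined within a mouse; a dotted line separates young from aged mice. For Acta2, Tagln, Tpm2 and Myh11 squares are above circles in the 3 young mice and below them in the 4 aged mice, Cnn1 squares are above and Des circles above in all 7.

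Des, on the pericyte side, was far from overlap between the types. Desmin, the intermediate filament of muscle, was at 211, 142 and 174 CPM in young and 649, 349.6, 345 and 429 CPM in aged pericytes, and at 0 to 4.62 CPM in myoepithelial cells, 8.04 ± 0.41 (SE; adjusted p = 3.01e-08). A Des UMI was held by 185 of 349 pericytes (53.0%, 95% Wilson interval 47.8 to 58.2, 33.0% when thinned), 5 of 1670 myoepithelial cells (0.299%, 95% Wilson interval 0.128 to 0.699, 0.120% when thinned) and 41 of 1819 vascular endothelial cells (2.25%, 95% Wilson interval 1.67 to 3.04, 0.825% when thinned), with median depths of 5065, 4431 and 4907 UMIs. Synaptopodin 2 (Synpo2), an actin-bundling Z-disc protein that was too low for the paired test, ranged over 28.3 to 126 CPM in pericytes and 0 to 7.69 CPM in myoepithelial cells without overlap. Smoothelin (Smtn) was higher in myoepithelial cells in 7 of 7 mice, −1.49 ± 0.19 (SE; adjusted p = 4.28e-05), at 124 ± 27.3 against 52.3 ± 23.2 CPM (SD, n = 7). This call too was lost without the pericytes that held Pecam1 or Cdh5, at −0.97 (adjusted p = 0.057). Gamma smooth muscle actin (Actg2), also outside the paired test, was at 383, 152 and 542 CPM in young and 23.9, 68.9, 26.2 and 9.13 CPM in aged myoepithelial cells. In pericytes Actg2 was at 7.53, 0 and 0 CPM in young and 25.3, 84.8, 0 and 42.9 CPM in aged mice, so the types overlapped in aged mice.

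Mural identity genes were higher in pericytes for 10 of 10 tested (20 in the list, beside 15.7% of all genes tested), with a median difference of 6.57, and the 10 others were too low for the test. Genes near 0 in myoepithelial cells were tested only through their pericyte level. The authors also named pericytes by Rgs5 and Notch3, so this count describes the label and does not support it. Rgs5, a brake on G protein signalling and the classical pericyte marker, was at 939, 841 and 1339.9 CPM in young and 345, 546, 633 and 875 CPM in aged pericytes against 0 to 10.1 CPM in myoepithelial cells, 7.54 ± 0.58 (SE; adjusted p = 3.96e-07). Notch3, the mural Notch receptor, ranged over 85.8 to 192 against 0 to 3.08 CPM. Pdgfrb, which binds PDGF-B from endothelium, averaged 80.4 ± 38.6 and 2.34 ± 2.83 CPM (SD, n = 7), and the potassium channel gene Kcnj8 and vitronectin (Vtn), below the filter, 47.7 ± 19.2 and 86.7 ± 35.5 CPM in pericytes against 0.348 ± 0.450 and 0.135 ± 0.357. Of the genes that set the contractile state, 5 of 9 tested regulators were higher in pericytes and 0 in myoepithelial cells (24 in the list, median 1.02, beside 15.7% and 11.6% of all genes tested). Ppp1r14a, which inhibits myosin phosphatase, averaged 237 ± 191 and 18.1 ± 14.8 CPM and differed by 3.71 ± 0.56 (SE; adjusted p = 1.51e-04). Abcc9, a subunit of the ATP-sensitive potassium channel, differed by 6.40 ± 0.51 (SE; adjusted p = 5.44e-07) and the cyclic nucleotide phosphodiesterase Pde3a by 6.59 ± 0.59 (SE; adjusted p = 1.51e-06). Rock1, Rock2 and Rhoa, which raise calcium sensitivity, were not called, at 0.53, 0.70 and 0.50.

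Receptors for contractile signals differed by type. Among 7 of 23 receptor and RGS genes tested, 5 were higher in pericytes and 0 in myoepithelial cells (15.7% and 11.6% of all genes tested were), with a median of 7.0. Ednrb, an endothelin receptor, had a lowest value of 34.3, a median of 122 and a highest value of 269.5 CPM in pericytes against 0 to 1.89 CPM in myoepithelial cells, and 37.4 CPM on average in vascular endothelial cells. S1pr3, a sphingosine-1-phosphate receptor, averaged 99.9 ± 77.1 against 0.131 ± 0.347 CPM. Rgs4 and Rgs16, further RGS genes, differed by 7.0 ± 0.56 (SE; adjusted p = 5.44e-07) and 5.67 ± 0.35 (SE; adjusted p = 8.33e-08). A pair of receptors for the related hormones vasopressin and oxytocin was too low for the test but did not overlap between types. The vasopressin receptor Avpr1a was at 34.7, 48.1 and 18.3 CPM in young and 33.7, 154, 50.9 and 154 CPM in aged pericytes and at 0 to 0.570 CPM in myoepithelial cells. The oxytocin receptor Oxtr was at 31.2, 88.5 and 58.4 CPM in young and 2.76, 8.96, 3.08 and 2.85 CPM in aged myoepithelial cells and at 0 to 1.51 CPM in pericytes, where it had 1 count in all. The young and aged myoepithelial levels of Oxtr did not overlap.

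Transcription factors also divided by type. Of 20 smooth muscle and mural regulators, 6 were tested and 5 were higher in pericytes (15.7% of all genes tested were): Mef2c, Mef2a, Hey1, Ebf1 and Nr2f2 (median 3.44). Mef2c, a partner of serum response factor in muscle, averaged 295 ± 111 and 18.6 ± 13.2 CPM and Ebf1, a mural and fibroblast factor, 602 ± 187 and 10.7 ± 11.2. Ebf1, Mef2c and Nr2f2 also averaged 412, 135 and 62.2 CPM in vascular endothelial cells. Klf4 was not called, at 0.15 ± 0.16 (SE; adjusted p = 0.493). Srf, serum response factor itself, and its muscle coactivator Myocd were below the filter, with 67 and 9 counts in all pericytes and 121 and 1 in all myoepithelial cells. Of 20 epithelial regulators, 7 were tested and all 7 were higher in myoepithelial cells (median −3.64, beside 11.6% of all genes tested), led by Tfap2c with −5.72 ± 0.67 (SE; adjusted p = 1.69e-05) and Sox10 with −4.98 ± 0.51 (SE; adjusted p = 5.07e-06). Sox4 averaged 1465 ± 822 CPM and Sox9 232 ± 49.7 CPM in myoepithelial cells against 112 ± 25.6 and 22.4 ± 9.77 in pericytes. Trp63, the basal epithelial master regulator, was below the filter, at 16.5 to 55.2 CPM in myoepithelial cells and 1 count in all pericytes.

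In a list of respiratory chain genes and their paralogs, 3 members were higher in pericytes. Ndufa4l2 ranged over 207 to 419 CPM in pericytes and 0 to 1.89 CPM in myoepithelial cells, 8.58 ± 0.38 (SE; adjusted p = 1.71e-08). Higd1b, 8.10 ± 0.46 (SE; adjusted p = 4.22e-08), and Cox4i2, 4.51 ± 0.34 (SE; adjusted p = 3.51e-07), were also higher in pericytes, at 108 ± 35.9 and 77.0 ± 35.9 CPM (SD, n = 7). Their widely expressed paralogs were not called, with Cox4i1 at −0.29, Ndufa4 at −0.97 and Higd1a at −0.58. Of the 12 genes in this list 9 were tested, 3 were higher in pericytes (15.7% of all genes tested were), 0 in myoepithelial cells (11.6%) and 6 were not called, with a median of 0.55. Other genes with the largest differences toward pericytes were Aspn, a small proteoglycan, 8.02 ± 0.36 (SE; adjusted p = 1.71e-08), Mustn1, a nuclear protein of muscle, 7.76 ± 0.57 (SE; adjusted p = 3.04e-07), Pcp4l1, 7.14 ± 0.56 (SE; adjusted p = 4.50e-07), and the matricellular Sparcl1, 7.11 ± 0.49 (SE; adjusted p = 1.69e-07). Adgrl4, an endothelial adhesion receptor, differed by 7.64 ± 0.49 (SE; adjusted p = 1.03e-07) and averaged 185 CPM in vascular endothelial cells beside 167 in pericytes. H2-M9, a class I gene with near-identical copies whose counts are uncertain, had 361 counts in pericytes and 0 in myoepithelial cells, at least 522-fold higher against 3 counts over the group.

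Endothelial transcripts made up a part of the pericyte side. Of the 530 genes higher in pericytes, 241 (45.5%) had a higher mean level in vascular endothelial cells than in pericytes, and 104 (19.6%) were over 2-fold higher in pericytes than there. All 16 endothelial markers tested were higher in pericytes (15.7% of all genes tested were), Fabp4 at 5.89 ± 0.39 (SE; adjusted p = 1.39e-07) and Plvap at 6.62 ± 0.47 (SE; adjusted p = 2.31e-07) among them, with a list median of 5.88. Without the pericytes that held Pecam1 or Cdh5, 300 of 1749 genes tested were higher in pericytes. On the other side, 80 of the 391 genes higher in myoepithelial cells had a higher mean in HS or AV cells than in myoepithelial cells, and 172 (44.0%) were over 2-fold higher in myoepithelial cells than in both.

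**Figure D4:**
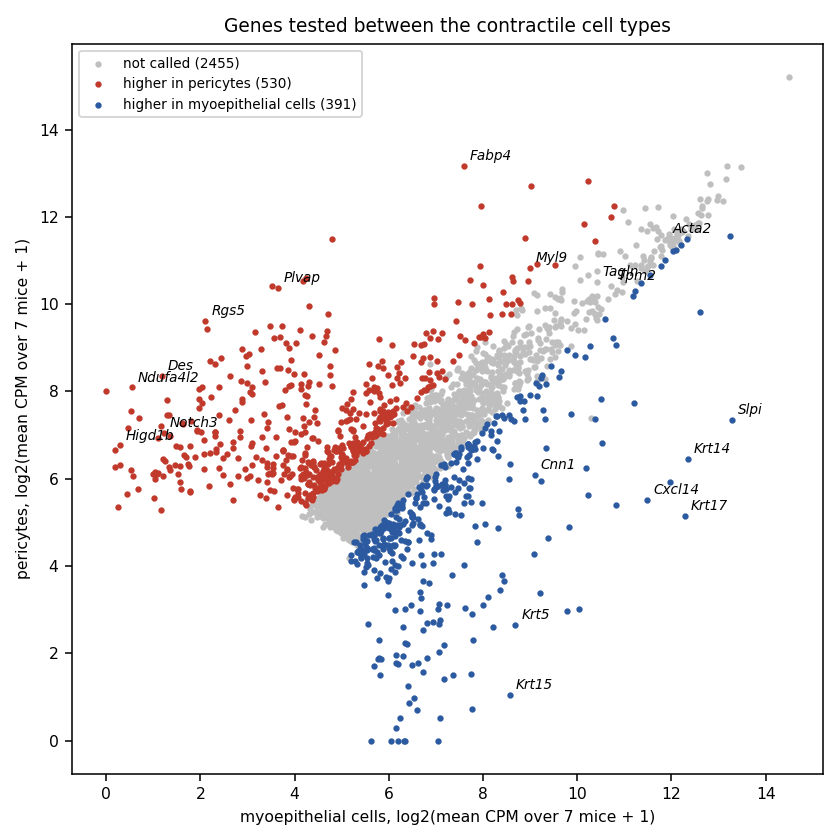
Mean level of each of 3376 genes tested in myoepithelial cells and in pericytes, log2(mean CPM over 7 mice + 1), colored by the call of the paired test. Acta2, Tagln and Tpm2 lie near the diagonal at high levels in both types, with mural and endothelial genes above it and keratins below it.

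Keratins and epithelial junctions set myoepithelial cells apart. Krt14, a basal keratin, was at 4152, 5402 and 6022 CPM in young and 4976, 5604, 5441 and 4853 CPM in aged myoepithelial cells and at 0 to 413 CPM in pericytes, −6.99 ± 0.66 (SE; adjusted p = 2.54e-06). Its highest pericyte value was that of Aged C. A Krt14 UMI was held by 1648 of 1670 myoepithelial cells (98.7%, 95% Wilson interval 98.0 to 99.1, 96.3% when thinned), 30 of 349 pericytes (8.60%, 95% Wilson interval 6.09 to 12, 4.30% when thinned) and 155 of 1819 vascular endothelial cells (8.52%, 95% Wilson interval 7.32 to 9.89, 3.46% when thinned), which should lack it. Pooled over mice the pericyte share was thus close to this background and slightly above it, with young and aged cells mixed in unlike shares. Within mice it was higher in Aged C, at 28.6% of pericytes against 9.29% of vascular endothelial cells (14.3% against 1.64% when thinned), and in Young B, at 8.45% against 2.38%. Krt17, −7.55 ± 0.36 (SE; adjusted p = 2.07e-08), Krt5, −6.63 ± 0.37 (SE; adjusted p = 4.02e-08), and Krt15, −7.95 ± 0.40 (SE; adjusted p = 2.74e-08), followed. Krt15 stood at 492 to 914 CPM in young and 80.4 to 163 CPM in aged myoepithelial cells. Of 15 intermediate filament genes 10 were tested, 7 keratins were higher in myoepithelial cells (11.6% of all genes tested were), and Des and Vim, the filaments of muscle and mesenchyme, in pericytes (15.7% of all genes, list median −2.23). Vim was still 493 ± 239 CPM in myoepithelial cells against 1481 ± 519 CPM in pericytes. Of 26 epithelial adhesion genes 16 were tested, 14 were higher in myoepithelial cells and 0 in pericytes (11.6% and 15.7% of all genes tested were), with a median of −4.03. They included the desmosomal plakin Dsp, −6.43 ± 0.39 (SE; adjusted p = 6.85e-08), the hemidesmosomal collagen Col17a1, −6.17 ± 0.46 (SE; adjusted p = 3.04e-07), and Sfn, an epithelial 14-3-3 protein, −6.25 ± 0.20 (SE; adjusted p = 2.77e-09). Pkp1, a desmosomal plaque protein, had 559 counts in myoepithelial cells and 0 in pericytes, at least 43.0-fold higher against 3 counts over the group.

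Secreted and surface proteins led the myoepithelial side as well. Slpi, a protease inhibitor, averaged 9995 ± 5394 CPM in myoepithelial cells and 162 ± 233 CPM in pericytes, and Chil1, a chitinase-like lectin, 1050.1 ± 339 and 7.13 ± 7.37 (SD, n = 7). Cxcl14, a chemokine of basal epithelium, averaged 2863 ± 630.5 and 44.7 ± 52.4 CPM. Lgals7, an epithelial galectin, differed by −7.17 ± 0.33 (SE; adjusted p = 1.87e-08), the collagen Col9a3 by −6.97 ± 0.41 (SE; adjusted p = 5.75e-08) and podoplanin (Pdpn) by −8.02 ± 0.44 (SE; adjusted p = 3.80e-08). Fibroblasts held Pdpn at 211 CPM, near the 218 CPM of myoepithelial cells. Of 23 ligands and receptors of the EGF, FGF, Wnt and IGF systems 5 were tested, and Wnt10a, Igfbp3 and Fgfr1 were higher in myoepithelial cells (median −1.93, beside 11.6% of all genes tested). Wnt10a, a Wnt ligand, averaged 85.1 ± 34.7 CPM in myoepithelial cells and 0.808 ± 2.14 CPM in pericytes. Speer4e, of a multicopy family whose counts are uncertain, had 972 counts in myoepithelial cells and 0 in pericytes, at least 74.7-fold higher against 3 counts over the group.

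Basement membrane genes, by contrast, were held by both. Of 30 matrix genes 14 were tested, 5 were higher in pericytes (15.7% of all genes tested were), 0 in myoepithelial cells (11.6%) and 9 were not called, with a median difference of 0.66. Higher in pericytes were the collagen IV chain Col4a1, 1.37 ± 0.29 (SE; adjusted p = 0.00159), the perlecan gene Hspg2, 1.46 ± 0.21 (SE; adjusted p = 7.92e-05), the laminin chain Lamb2, 1.66 ± 0.29 (SE; adjusted p = 4.07e-04), Sparcl1 and Igfbp7. Pericytes held endothelial markers at 37.9% to 71.9% of the vascular endothelial level, and the part of endothelial RNA in these differences was not tested. Col4a2, at 0.86 ± 0.29 (SE; adjusted p = 0.0251), was under the 2-fold minimum. Igfbp7 was the most lopsided of the matrix genes after Sparcl1, at 6713 ± 1222 CPM in pericytes and 515 ± 297 CPM in myoepithelial cells, and 4340.1 CPM in vascular endothelial cells. The laminin chains Lamb1 and Lamc1 were not called, at −0.12 and −0.18. Integrin alpha 7 (Itga7), a muscle laminin receptor below the filter, ranged over 25.5 to 68.9 CPM in pericytes and 0 to 3.25 CPM in myoepithelial cells. Of 16 integrin genes 4 were tested and 2 were higher in myoepithelial cells (11.6% of all genes tested were), with a median of −0.86. Itga6, the laminin receptor of basal epithelium, and Itgav were higher there, by −1.01 ± 0.27 (SE; adjusted p = 0.00826) and −1.88 ± 0.29 (SE; adjusted p = 1.68e-04), and Itgb1 was not called, at 0.17 ± 0.18 (SE; adjusted p = 0.471).

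Ligands and receptors of the Notch and PDGF pathways were split between the types, with 4 of 6 genes tested higher in pericytes and 2 in myoepithelial cells (17 in the list, median 1.96, beside 15.7% and 11.6% of all genes tested). Notch3 and the Notch target Hes1, 2.47 ± 0.22 (SE; adjusted p = 1.24e-06), were higher in pericytes, and the ligands Jag1, −1.32 ± 0.49 (SE; adjusted p = 0.0407), and Dll1, −1.12 ± 0.42 (SE; adjusted p = 0.0406), in myoepithelial cells. Jag1 was at 32.1, 49.2 and 16.2 CPM in young and 298, 253, 202 and 338 CPM in aged myoepithelial cells, without overlap, and at 25.7 to 84.8 CPM in pericytes. Of 19 cytokine and chemokine genes 13 were tested, 4 were higher in pericytes (Cxcl10, Cxcl12, Ccl11 and Il6) and 4 in myoepithelial cells (Cxcl14, Cxcl16, Cx3cl1 and Csf1), beside 15.7% and 11.6% of all genes tested, with a list median of 0.48. Il6 averaged 722 ± 229 CPM in pericytes, 10.1 ± 12 CPM in myoepithelial cells and 592 CPM in vascular endothelial cells. Ccl11, an eosinophil chemokine, averaged 384 ± 171 and 26.0 ± 24.0 CPM in the contractile types and 19.5 CPM in vascular endothelial cells.

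The difference between the types changed with age for 433 of 3376 genes (12.8%, adjusted p under 0.05 and at least 1.5-fold), 239 toward pericytes and 194 toward myoepithelial cells in aged mice. Beside the contractile genes, 6 of 13 cytokine and chemokine genes tested shifted toward myoepithelial cells in aged mice (Cxcl1, Cxcl2, Cxcl10, Cxcl16, Csf1 and Csf3) and 1 toward pericytes (Ccl11). Of all genes tested 5.75% and 7.08% did so, and the median change was −1.40 in the list beside 0.02 over all genes. Csf3, the granulocyte growth factor, was at 22.7, 4.92 and 19.5 CPM in young and 1453, 1290.0, 1268 and 1184 CPM in aged myoepithelial cells. In pericytes Csf3 was at 576, 666 and 361 CPM in young and 1735, 207, 1323 and 214 CPM in aged mice. Its difference changed by −5.83 ± 0.76 (SE; adjusted p = 1.72e-04), with pericytes higher in all 3 young mice, and it averaged 3408 CPM in vascular endothelial cells. Vcam1, a leukocyte adhesion molecule, was at 98.2, 54.1 and 35.7 CPM in young and 1502, 559, 801 and 1134 CPM in aged myoepithelial cells. Its pericyte levels were 113, 99.1 and 96.0 CPM in young and 42.1, 10.6, 39.6 and 25.7 CPM in aged mice, so pericytes were higher in the 3 young and lower in the 4 aged mice, −5.66 ± 0.41 (SE; adjusted p = 1.11e-06). The neutrophil chemokine Cxcl1 ranged over 19.7 to 107 CPM in young and 1943 to 5533 CPM in aged myoepithelial cells, and over 622 to 839 and 1053 to 2796 CPM in pericytes. Cxcl2 ranged over 4.92 to 64.9 and 837 to 4501 CPM in young and aged myoepithelial cells and over 42.5 to 96.0 and 172 to 344 CPM in pericytes. With the pericytes that held neither Pecam1 nor Cdh5, the changes were −5.25 (adjusted p = 0.11) for Cxcl1, −11.15 (adjusted p = 0.167) for Vcam1 and 2.36 (adjusted p = 0.935) for Cxcl2, and none of these was called. Csf3 was below the filter in that subset, so its change was not tested there.

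Further genes that shifted toward myoepithelial cells were Pitpnc1, a phospholipid transfer protein, −3.55 ± 0.45 (SE; adjusted p = 1.48e-04), Oaf, −3.52 ± 0.44 (SE; adjusted p = 1.43e-04), Tnfaip3, an inhibitor of NF-kB signalling, −3.39 ± 0.63 (SE; adjusted p = 0.0028), and Plet1, a surface protein of epithelial progenitors, −3.05 ± 0.76 (SE; adjusted p = 0.0156). Plet1 was at 111, 59.0 and 227 CPM in young and 3006, 2919.5, 2651 and 3606 CPM in aged myoepithelial cells against 4.57 to 101 CPM in pericytes. Toward pericytes, Pdlim3, a muscle LIM protein, changed by 5.17 ± 0.56 (SE; adjusted p = 4.50e-05), Nexn by 3.41 ± 0.58 (SE; adjusted p = 0.00172) and Trf, transferrin, by 3.96 ± 0.92 (SE; adjusted p = 0.0112). Tnfaip3 and Trf lost the call without Young A and Plet1 without Young B, at −2.84, 3.65 and −1.58, and Trf also under DESeq2 (adjusted p = 0.0507). Without the pericytes that held Pecam1 or Cdh5, none of the tested genes in this paragraph kept the call: Pitpnc1 was at −3.29 (adjusted p = 0.192), Oaf at −4.67 (adjusted p = 0.11), Plet1 at −3.26 (adjusted p = 0.558), Pdlim3 at 4.39 (adjusted p = 0.0879), Nexn at 1.65 (adjusted p = 0.476) and Trf at 11.94 (adjusted p = 0.192), and Tnfaip3 was below the filter. Trf averaged 5119 CPM in AV cells and was at 16.6, 65.1 and 0 CPM in young and 160.0, 736, 22.6 and 678 CPM in aged pericytes, beside a luminal marker list at 0.0617% to 0.117% of UMIs in young and 0.0972% to 0.348% in aged pericytes; the part of luminal RNA in this result was not tested. Il17b and Mdk, a cytokine and a heparin-binding growth factor, had 0 counts in the pericytes of all young mice and were at most 17.0 and 17.0 CPM in aged ones, so no fold is given. Il17b was at 326 to 448 CPM in young and 62.2 to 138 CPM in aged myoepithelial cells and Mdk at 113 to 169 and 58.2 to 93.8 CPM. Mdk lost the call without Young A, B or C or Aged A or C (adjusted p = 0.0576 to 0.130) and Il17b without Aged C (adjusted p = 0.0553). The counts of genes moved with the mice that entered: without Young A, 82 genes shifted toward pericytes and 83 toward myoepithelial cells of 2823 tested (2.90% and 2.94%), and without Young C the latter were 2.89% of 4436. Without the pericytes that held Pecam1 or Cdh5 they were 6 and 1 of 1749.

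**Figure D5:**
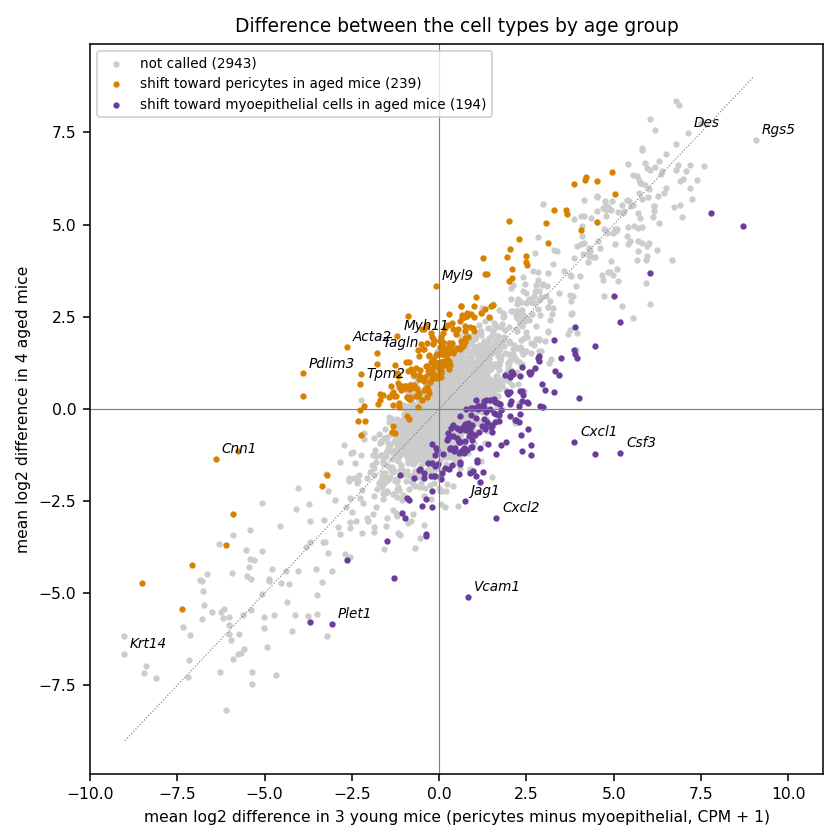
Mean log2 difference between pericytes and myoepithelial cells (CPM + 1) in 3 young mice against that in 4 aged mice for each of 3376 genes, colored by the call of the interaction with age; the dotted line marks equal differences. Contractile genes such as Acta2, Tagln and Tpm2 lie above 0 in aged and below 0 in young mice, and Csf3, Cxcl1 and Vcam1 the other way.

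Depth and cell cycle calls were compared over mice. Median UMIs per cell were 3716 to 5902 per mouse in pericytes and 3797 to 5226 in myoepithelial cells, a mean difference of 382.5 ± 542 (SD, n = 7), higher in pericytes in 5 of 7 mice (exact two-sided sign-flip test, p = 0.125). The median number of genes per cell was higher in pericytes in 7 of 7 mice, by 284 ± 158 (SD; exact p = 0.0156, the smallest that 7 pairs allow). The authors' phase calls placed 5.13 to 13.0% of pericytes and 13.6 to 22.2% of myoepithelial cells per mouse in G2M, lower in pericytes in 7 of 7 mice (exact p = 0.0156). The part of free RNA and depth in these calls was not tested, so they are not read here as a measure of cycling. Of 15 genes that respond to tissue dissociation, 9 were higher in pericytes and 0 in myoepithelial cells (median 1.10, beside 15.7% and 11.6% of all genes tested), Egr1 by 1.86 ± 0.18 (SE; adjusted p = 3.08e-06) and Zfp36 by 2.25 ± 0.15 (SE; adjusted p = 1.21e-07). The list took 2.13% to 3.15% of UMIs in pericytes, 1.01% to 1.52% in myoepithelial cells and 1.90% to 2.84% in vascular endothelial cells, and its part in the other results was not tested.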

How the data were processed

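Droplet libraries of 3′ transcript ends, 1 per mouse, were made from the mammary glands of 7 mice. The authors aligned and counted the reads with Cell Ranger 2.0 on mm10 (per the submitters' processing notes), kept cells by UMIs, genes and mitochondrial share, and deposited a matrix of genes by cells with unnormalized UMI counts. With each cell the authors deposited its mouse, age group and cell type, its mitochondrial fraction, and the S and G2M score that gave its phase. The deposited counts held 13684 cells and 6652599 to 16999625 UMIs per mouse. Cell types were taken as deposited; the authors filtered cells with doublets in mind and estimated doublets with Scrublet and DoubletFinder, and no doublets were called here.

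For each mouse, the counts of a cell type were added up and tested with edgeR 4.0.16 (R 4.3.3): TMM normalization, filterByExpr by cell type, quasi-likelihood fit with the mouse as a block, and Benjamini-Hochberg adjustment over all genes tested. Both cell types of a mouse come from 1 library, which is where the pairing comes from; the letters A to D name different animals in young and aged mice. Pericytes against myoepithelial cells needed at least 2-fold, the interaction with age at least 1.5-fold. On simulated counts with 3376 genes, 79% of genes changed 3-fold between the types and 60% of 3-fold interactions were recovered. At 6-fold these shares were 77% and 90%, and 1 and 12 other genes were called falsely. The simulation held no differences between mice, ages or pericyte subsets beyond the planted ones. It thus does not show how reliable the interaction calls are in these data. Single values were compared with exact sign-flip tests over mice (scipy 1.17.1). CArG boxes were searched in RefSeq promoters of GRCm38.p6.

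Named were the markers of both types that the study uses, the 12 genes with the largest fold in each direction that averaged at least 100 CPM in the higher type and differed alike in every mouse, the 15 largest shared genes, the 8 largest interactions in each direction that averaged at least 50 CPM in either type, and members of gene lists; 1 gene that this rule names is not reported here. The members and lists were chosen with earlier results of these data known. Alternatives were DESeq2 1.42.0, RLE size factors, no filter on low counts, other fold minimums, no mouse block, thinned sums, a minimum of 20 cells, no ribosomal or mitochondrial genes, subsets of pericytes, each age alone and each mouse left out.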

Additional observations from a re-analysis of the deposited data

Results flagged for a closer look

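The log2 difference between pericytes and myoepithelial cells changed from young to aged mice for 22 of the named genes, each by edgeR's test of the interaction itself. Among contractile genes and actin-binding partners the change toward pericytes was 4.36 for Acta2, 4.48 for Cnn1, 5.17 for Pdlim3, 3.47 for Myl9, 3.41 for Nexn, 3.32 for Tagln, 3.20 for Myh11, 2.97 for Tpm2, 2.66 for Mylk and 2.15 for Lmod1. Fmod changed by 4.74 and Trf by 3.96. The fitted changes of Il17b, 7.03, and Mdk, 6.06, rest on 0 counts in young pericytes and depend on the prior count, so they are no bound on the size, and both lost the call with some mice left out. Toward myoepithelial cells the change was −5.83 for Csf3, −5.66 for Vcam1, −4.47 for Cxcl1, −4.09 for Cxcl2, −3.55 for Pitpnc1, −3.52 for Oaf, −3.39 for Tnfaip3 and −3.05 for Plet1. The share of pericytes with a Pecam1 or Cdh5 UMI was 91.5% to 95.9% in young and 39.1% to 75.0% in aged mice, and its part in these changes was not tested. Without those cells 17 of the 22 genes were tested, 16 kept their direction and 2, Acta2 and Myl9, kept the call. Cnn1 was then at 1.27 (adjusted p = 0.530).

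In the 4 aged mice, 1 mouse stood apart from the other 3 for 5 of the 50 named genes tested by Dixon's criterion, which chance meets in about 1 in 20 groups. The values are differences of log2(CPM + 1), pericytes minus myoepithelial cells. In Aged C, Higd1b was 4.50 against 6.33 to 6.58 in the others, Mustn1 5.82 against 8.91 to 9.30 and Aspn 7.86 against 6.87 to 7.03. In Aged D, Chil1 was −9.79 against −6.49 to −6.06 and Slc2a4 −3.26 against 1.05 to 1.37. Aged C had 28 pericytes and Aged D 20.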

How the results depend on the processing

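RLE size factors, DESeq2, the removal of ribosomal and mitochondrial genes, and pericytes with a mural UMI (chosen after seeing the data) left every count of called genes within 1.5 times, except that DESeq2 gave 3.79% of genes smaller in aged mice in place of 5.75%. A minimum of 20 cells kept all mice. Without the replicate block, 536 genes were higher in pericytes, 413 in myoepithelial cells and 36 in both contractile types. With no filter on low counts these were 1658, 1555 and 95, and 1.12% and 2.72% of genes were larger and smaller in aged mice, of 16139 tested in place of 3376. Thinned to equal totals, 349 and 206 genes were higher in pericytes and myoepithelial cells, with no fold minimum 817 and 826, and with 1.5-fold 727 in myoepithelial cells. Young mice alone gave 855 genes higher in pericytes and aged mice alone 674 in myoepithelial cells. Without pericytes that held Pecam1 or Cdh5, which leaves 6 mice and drops Young C, 300 genes were higher in pericytes. Then 0.343% of genes were larger and 0.0572% smaller in aged mice, and the median of the contractile gene list was 1.38 in place of −0.14. Fewer cells and genes entered. With 1 mouse left out, genes larger in aged mice ranged from 2.90% (without Young A) to 6.67% and smaller ones from 2.89% (without Young C) to 4.63%, and genes higher in pericytes and in myoepithelial cells from 465 to 708 and from 351 to 570.

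Among named genes, the difference of Acta2 over all mice (−0.26) became 1.82 without those pericytes, 0.069 with mural UMIs, 1.54 in aged mice alone and −0.81 to 0.32 with 1 mouse left out, above 0 without any 1 young mouse. In young mice alone Myl9 was −0.35, Mylk −0.71 and Myh11 −1.43. Myh11 was −0.028 to 0.78 with 1 mouse left out. The change of Cxcl2 with age became 2.36 without the pericytes that held Pecam1 or Cdh5 (adjusted p = 0.935). Beyond the age split in the report, the cause of these shifts was not tested. Of the other values of 28 genes between types, 471 kept direction and side of the threshold, 6 passed it and 4, all of Myl9 without an aged mouse, lost it. Of 16 genes in the interaction, 198 values kept both and 19 lost the threshold. For 15 shared genes all 202 values kept direction and side of the contrast threshold, but the rule on the lower contractile type was not rechecked. Settings in which a gene was not tested gave no value. Of all 37 shared calls, 25 were made again without the pericytes that held Pecam1 or Cdh5 and 27 without Young C.

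Precision was limited by 20 to 46 pericytes per aged mouse.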
